A study of Mus musculus with 35 samples.

Results

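The comparison described here set liver metastases labelled Smad4 on against those labelled Smad4 off, 7 days after doxycycline (Dox) was withdrawn from the labelled-on mice. Its members were the 3 libraries labelled on (m1, m2 and m3) and the 2 labelled off (m1 and m2) among the 35 libraries of the series, chosen by their labels of organ, day and *Smad4* status. RNA was sequenced from mKate2+ tumor cells sorted from the liver of *Foxn1*nu athymic nude females, 6 to 8 weeks old at transplantation. The cells were KC-shSmad4 cells, mouse pancreatic ductal adenocarcinoma (PDAC) cells from a model with *Ptf1a*-Cre, a *Rosa26* LSL-rtTA3-IRES-mKate2 allele and, at *Col1a1*, a short hairpin RNA (shRNA) that targets *Smad4*, is linked to GFP and is induced by Dox. All 5 mice received these cells by injection into the spleen, which was then removed, and were fed Dox, which switches the shRNA on. Mice labelled on returned to regular chow 5 weeks after injection, so that *Smad4* should recover, and mice labelled off stayed on Dox. The cells were passaged culture lines transduced with luciferase, Cre had acted in the pancreas of the donor animals only, and nude hosts lack most T cells. Which culture line each library came from is not given in the labels, so that the p-values measure the spread between libraries, each numbered by mouse.

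SMAD4 is the shared partner of the receptor-activated SMAD proteins. TGF-beta, activin and BMP ligands bind pairs of serine/threonine kinase receptors, which phosphorylate SMAD2 and SMAD3 or SMAD1, SMAD5 and SMAD8, and these enter the nucleus with SMAD4 and bind DNA at short CAGA elements. In epithelial cells the pathway is known for halting the cell cycle, for epithelial-mesenchymal transition (EMT) and for the production of extracellular matrix, and *SMAD4* is often lost in pancreatic cancer. Which genes answer to *Smad4* in liver metastases was the question behind the comparison.

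*Smad4* mRNA went against the labels. It was at 84.1 and 116 CPM (counts relative to the TMM-scaled library size) in the labelled-off libraries m1 and m2, and at 14.8, 13.9 and 14.7 CPM in the labelled-on libraries m1, m2 and m3. TMM scaling makes libraries of different composition comparable. The groups did not overlap, and the labelled-on libraries held less *Smad4*. On the log2 scale the difference was -2.79 (standard error 0.20, adjusted p = 0.0477, quasi-likelihood F-test of edgeR, p-values adjusted by Benjamini-Hochberg). Every direction below is therefore that of the library labels, with "higher" meaning higher in those labelled on, and whether labels or treatments were exchanged was not tested. Values below follow the same order, m1 and m2 for labelled off, then m1, m2 and m3 for labelled on.

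The libraries held 27928258 to 43571007 counts on genes, and 3 counts, the limit that a count of 0 allows, were 0.0685 to 0.121 CPM. A single library stood apart, the labelled-off m2, which was sequenced paired-end and the others single-end. Summed over 13 markers of fibroblasts and stellate cells, it held 35963 CPM, against 377 CPM in the labelled-off m1 and 627 to 1482 CPM in the labelled-on libraries. The collagen genes *Col3a1*, *Col1a1* and *Col1a2* made up most of the sum in m2, at 15785, 9912 and 8136 CPM. *Rgs5*, *Des* and *Lrat* were lower in m2 than in the labelled-off m1, and the other members were higher. The 22 pancreatic acinar markers summed to 554 CPM in m2, against 6.19 CPM in m1 and 13.0 to 21.5 CPM in the labelled-on libraries. Of the 22, 1 was at 0 in m2 against 11 to 13 in the others. The chymotrypsinogen gene *Ctrb1* was at 139 CPM in m2, and the pancreatic lipase gene *Pnlip*, at 53.9 CPM, had no count in any of the other 4 libraries. *Bhlha15* was lowest in m2, at 0.202 CPM against 0.365 CPM in m1 and 2.19, 3.69 and 1.70 CPM in the labelled-on libraries. *Rbpjl* was at 0.364 CPM in m2 and 0.480 CPM in m1, and *Ptf1a* had no count in any library. The other acinar markers were higher in m2 than in every other library. The 8 markers of tumor epithelium summed to 3968 CPM in m2, against 12562 CPM in m1 and 14807 to 16927 CPM in the labelled-on libraries. *Sox9* was the exception, at 254 CPM in m2, 248 CPM in m1 and 113 to 190 CPM in the labelled-on libraries. The other members were lowest in m2. Markers of endothelium summed to 93.0 CPM in m2, of which *Cdh5* made up 69.2 CPM, and to 13.5 to 28.1 CPM in the others, while the endothelial marker *Pecam1* was at 1.94 CPM in m2 and at 0.731 to 1.95 CPM in the others. Markers of macrophages summed to 22.4 and 32.3 CPM in the labelled-off m1 and m2, and to 46.8, 65.2 and 91.5 CPM in the labelled-on m1, m2 and m3. Lists for neutrophils, lymphocytes, erythroid cells and pancreatic islets summed to at most 32.7 CPM in any library. The labelled-off m2 and the labelled-on m3 had counts on the mitochondrial gene *mt-Co3* and the other 3 libraries had none, a difference that splits both groups. Within the labelled-on group, m1 and m2 were closer to each other than to m3 (correlation of log2 CPM 0.994 against 0.965 and 0.964), and still differed beyond sampling noise (chi-square of 22.0 per degree of freedom).

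**Figure D1:**
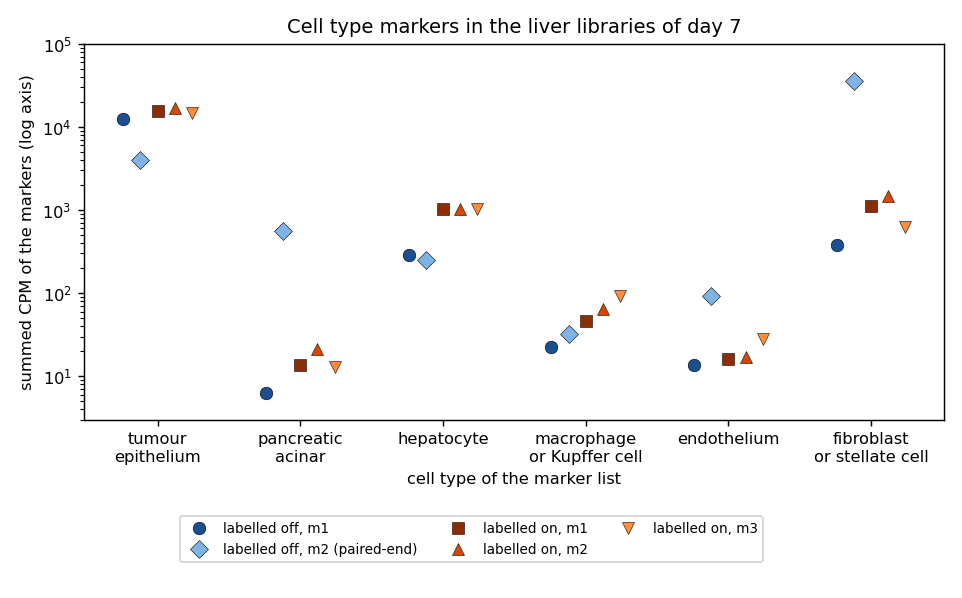
Summed CPM (log axis) of marker lists for 6 cell types in each liver library of day 7. Fibroblast or stellate markers reach 35963 CPM in the paired-end labelled-off library m2 and 377 to 1482 CPM in the other libraries, and acinar markers stand at 554 CPM in m2 and at 6.19 to 21.5 CPM elsewhere.

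Of 16007 genes tested in the 5 libraries, 29 were higher (0.181%) and 42 were lower (0.262%) in the libraries labelled on, requiring more than a 2-fold change together with an adjusted p under 0.05, or 0.444% in either direction. The adjusted p-values of the 71 genes lay between 0.0477 and 0.0480, so that they give no order. At an unadjusted p under 0.05 the numbers were 2217 higher and 2123 lower, and DESeq2 called 1622 (10.1%) and 1220 (7.62%). A single edgeR fit of all 12 groups of the series called 9.72% and 7.93% of its genes, and a covariate for *mt-Co3* gave 3.49% and 2.9%. Without the labelled-off m1 edgeR called 1730 and 1643 genes, without the labelled-off m2 539 and 320, and without any one of the labelled-on m1, m2 or m3 it called 0 and 0. The groups did not overlap for any of the 71 genes, as was the case for 23.7% of all tested genes with the labelled-on group higher and 22.3% with it lower. These were genes on which the labelled-off libraries were alike: their levels in m1 and m2 differed by over 2-fold for 2 of the 71 genes and for 23.6% of all tested genes. The call itself asks for such likeness, so that this is a property of the test.

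Against the labelled-off m1 alone, without the paired-end library, all 29 genes higher and all 42 lower kept a difference of over 2-fold with every labelled-on library on the same side. Among all tested genes 11.5% were higher and 7.11% lower by that measure, and 8.53% and 4.25% by the same measure against both m1 and m2. The smallest such difference among the 71 was 1.51 on the log2 scale. In a fit of the 3 labelled-on libraries against m1, where that single library is assumed to vary like the labelled-on ones, all 71 genes also passed the test, with adjusted p-values of 0.0261 to 0.0330 (edgeR). This fit called 539 genes higher (3.12%) and 320 lower (1.85%) of 17266. Since m1 takes part in both fits, the second is no independent repeat of the first. Among the libraries with *mt-Co3* counts (m2 labelled off, m3 labelled on) and among those without, each of the 71 genes differed by over 2-fold in the same direction. Their groups did not overlap in the 5 libraries, so that the direction in each part was fixed by the choice of genes.

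Called genes outside the naming rule are included below to account for the called genes, and were added after their values were seen.

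Genes of secreted mucus, Wnt signaling, junctions and metabolism were among those higher. *Muc5ac*, the gel-forming mucin of the stomach surface (ENSMUSG00000037974, GRCm38 chromosome 7, 141788972 to 141819231), was at 0.548 and 0.606 CPM in the labelled-off libraries and at 15.7, 13.3 and 10.7 CPM in the labelled-on ones. All labelled-on libraries lay above both others, with a log2 fold change of 4.51 (standard error 0.37). *Wnt4*, a secreted ligand (ENSMUSG00000036856, GRCm38 chromosome 4, 137277489 to 137299726), was at 14.7 and 15.4 CPM against 140, 135 and 205 CPM (log2 fold change 3.41, standard error 0.28). *Fzd5*, which encodes a Frizzled receptor for Wnt ligands, was at 25.6 and 26.9 CPM against 94.2, 113 and 82.2 CPM. The groups were far apart for both genes, at log2 ratios to m1 alone of 3.37 for *Wnt4* and 1.88 for *Fzd5*. *Shroom3*, which directs apical constriction of epithelial cells, was at 34.7 and 21.5 CPM against 194, 163 and 195 CPM. *Mmp15*, a membrane-bound metalloproteinase, was at 30.3 and 17.9 CPM against 167, 166 and 202 CPM. Both genes had their lowest level in the labelled-off m2 and were also clear of m1, at log2 ratios of 2.38 and 2.54. *Eps8l1*, of the Eps8 family of actin regulators, had a log2 fold change of 3.70, and *EPPK1*, the file's symbol for the epithelial cytolinker epiplakin, had 2.63.

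Transport and redox genes followed. *Atp7b*, the copper pump that is defective in Wilson disease, was at 3.06 and 3.07 CPM against 33.1, 38.5 and 46.0 CPM (log2 fold change 3.68). *Mgst1*, a microsomal glutathione transferase, was at 8.47 and 8.36 CPM against 46.5, 54.5 and 80.3 CPM. For both, the labelled-off libraries were nearly equal and every labelled-on library was far above them. *Slc16a12*, of the monocarboxylate transporter family, had a log2 fold change of 4.04, *Slc12a8* one of 2.73 and *Slc45a3* one of 2.14. *Abat*, the transaminase that breaks down GABA, was at 0.206 and 0.202 CPM against 5.10, 5.12 and 4.61 CPM. *Adora1*, the adenosine A1 receptor, was at 2.35 and 1.54 CPM against 32.4, 36.9 and 24.1 CPM. Neither gene overlapped between the groups, and *Abat* was near the floor in both labelled-off libraries. *Epas1*, which encodes the hypoxia-inducible factor HIF-2alpha, was at 15.0 and 10.1 CPM against 70.1, 68.3 and 95.3 CPM. Immune-related members were *Casp1*, the inflammasome protease, with a log2 fold change of 2.04, and *Cd74*, the invariant chain of MHC class II, with 2.01. The summed macrophage markers were also higher in every labelled-on library, and the part of immune cell RNA in these genes was not tested. *St6galnac2*, a sialyltransferase with a log2 fold change of 2.31, shares its locus with a gene on the other strand that held 2206 counts over the 5 libraries, and the strand setting of the counting is not given in the sources used here.

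Several of the genes with the largest fold changes are known from hepatocytes. *Ces3a*, a liver carboxylesterase, had 1 count in the labelled-off m1 and none in m2, and was at 8.60, 12.1 and 5.89 CPM in the labelled-on libraries. Its ratio over the summed groups was 615, with a 95% exact counting interval of 110 to 24307. *Mup20*, a major urinary protein, had 3 counts in the labelled-off libraries together and 560 in the labelled-on ones, at 5.25, 6.48 and 4.89 CPM, a ratio of 127 (counting interval 43.1 to 616). *Fcamr*, an Fc receptor for IgA and IgM, also had 3 counts against 294, a ratio of 66.5 (22.5 to 324). All of these genes were near the floor in both labelled-off libraries, and the intervals cover counting error only. *Cyp2d10*, a cytochrome P450, was at 0.137 and 0.242 CPM against 5.40, 5.34 and 4.11 CPM. *Mup20*, *Cyp2d10* and the carboxylesterases belong to families of close copies, so that reads may be split among members, and *Fcamr* overlaps a gene on the other strand that held 533 counts.

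Of 17 tested hepatocyte markers, 15 had a positive log2 fold change, beside 7420 of all 16007 tested genes. For 14 of the 17 markers the groups did not overlap, all with the labelled-on group higher, beside 23.7% of all tested genes. None was called in the 5 libraries by edgeR, beside 11 higher and 0 lower at an unadjusted p under 0.05 and 9 and 0 by DESeq2. All 22 markers summed to 287 and 252 CPM in the labelled-off libraries and to 1016, 1028 and 1037 CPM in the labelled-on ones. *Apob*, the backbone of VLDL particles, made up most of the sum in every library but the labelled-off m2, at 239 and 77.8 CPM against 912, 912 and 807 CPM. *Alb*, the albumin gene and a defining marker of hepatocytes, was at 1.64 and 0.768 CPM against 8.99, 2.48 and 12.7 CPM. The 2 markers with a negative log2 fold change were *Ass1*, of the urea cycle, at 11.7 and 161 CPM against 15.5, 17.2 and 47.8 CPM, and *Trf*, the transferrin gene, at 15.6 and 8.0 CPM against 10.9, 8.62 and 3.51 CPM. *Ass1* thus made up most of the sum in the labelled-off m2. Per kilobase of transcript, *Mup20* was at 5.66, 6.99 and 5.27 CPM in the labelled-on libraries and *Alb* at 3.84, 1.06 and 5.44 CPM, so that *Mup20* exceeded *Alb* in m1 and m2 and lay close to it in m3. The labelled-on m2 held the most *Mup20* and *Ces3a* of the 3 and the least *Alb*. The part of hepatocyte RNA in these genes was not tested. The remaining genes called higher without a protein name, *Gm3054*, *Gm37711* and *Gm20219*, had log2 fold changes of 5.38, 5.35 and 3.80. The others were *Pag1* (3.37), an adaptor of Src-family kinases, *Rtn4rl1* (2.59), a Nogo receptor homolog, *Mocs1* (1.65), of molybdenum cofactor synthesis, and *Slc35f5* (1.44).

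**Figure D2:**
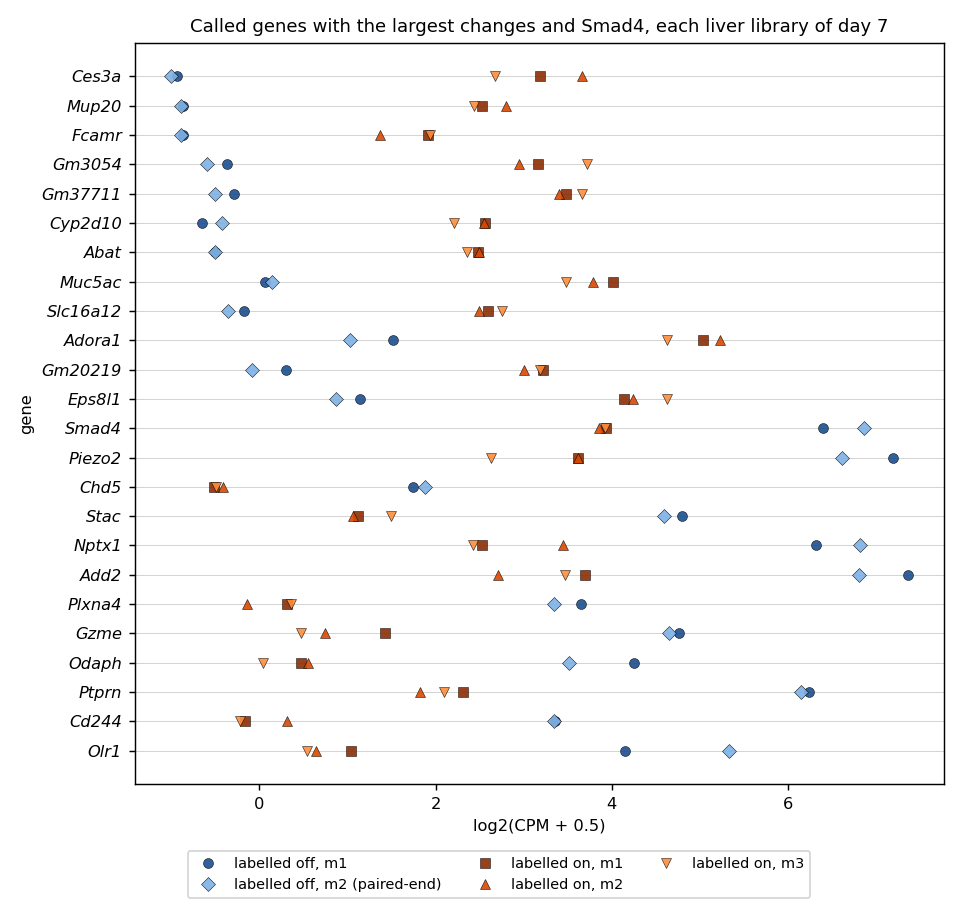
Level of *Smad4* and of the 12 genes higher and 11 of the 12 lower with the largest log2 fold changes in each liver library of day 7, as log2(CPM + 0.5). The labelled-on libraries lie on one side of both labelled-off libraries for every gene shown, and *Muc5ac* goes from 0.548 and 0.606 CPM to 10.7 to 15.7 CPM.

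Genes lower in the libraries labelled on included *Olr1*, a scavenger receptor for oxidized LDL, which was at 17.3 and 39.6 CPM in the labelled-off libraries against 1.55, 1.05 and 0.958 CPM. The labelled-off m2 was the higher of its group, the groups did not overlap, and the log2 ratio to m1 alone was -3.41. *Odaph*, known from tooth enamel, was at 18.5 and 10.9 CPM against 0.887, 0.962 and 0.532 CPM.

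A number of the genes lower are known from neurons, among other cells. *Ptprn*, a protein of dense-core vesicles, was at 74.9 and 70.5 CPM against 4.46, 3.04 and 3.76 CPM (log2 fold change -4.27, standard error 0.23). *Nptx1*, a neuronal pentraxin, was at 79.0 and 112 CPM against 5.27, 10.4 and 4.86 CPM. *Plxna4*, a semaphorin receptor subunit, was at 12.1 and 9.66 CPM against 0.739, 0.403 and 0.780 CPM. Both labelled-off libraries stood far above the highest labelled-on library in each of these. *Chd5*, a chromatin remodeler, was at 2.85 and 3.19 CPM against 0.197, 0.248 and 0.213 CPM. It was low in all libraries and still separate between the groups. *Piezo2*, a mechanically gated ion channel, was at 146 and 97.8 CPM against 11.8, 11.8 and 5.67 CPM. *Stac*, an adaptor that binds calcium channels, was at 27.3 and 23.7 CPM against 1.68, 1.58 and 2.31 CPM. *Ncs1*, a neuronal calcium sensor, and *Lrrk2*, the kinase linked to Parkinson disease, had log2 fold changes of -1.61 and -2.29.

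Cytoskeleton and membrane genes formed another part of the 42. *Add2*, a spectrin-binding adducin, was at 164 and 112 CPM against 12.4, 6.02 and 10.5 CPM. *Tuba1a*, an alpha-tubulin, was at 339 and 707 CPM against 62.3, 48.6 and 53.0 CPM. *Dbn1*, the actin-binding drebrin, was at 160 and 202 CPM against 26.8, 25.6 and 15.3 CPM. The labelled-off m2 held more *Tuba1a* and *Dbn1* than m1 and less *Add2*, and all 3 genes stayed over 2-fold lower than m1 alone. *Cav1*, the main coat protein of caveolae, was at 293 and 410 CPM against 59.2, 53.1 and 37.8 CPM (log2 fold change -2.81). *Axl*, the receptor tyrosine kinase that binds GAS6 (ENSMUSG00000002602, GRCm38 chromosome 7, 25757273 to 25788705), was at 625 and 929 CPM against 145, 112 and 112 CPM (log2 fold change -2.66, standard error 0.27). *Vegfc*, the growth factor of lymphatic vessels, was at 36.4 and 40.4 CPM against 9.58, 8.16 and 6.77 CPM. For *Cav1*, *Axl* and *Vegfc* the labelled-off m2 lay above m1, further from the labelled-on libraries. *Fyn*, a Src-family kinase, had a log2 fold change of -3.14.

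Regulators of transcription and signaling were lower too. *Hmga2*, an architectural chromatin protein of embryonic and mesenchymal cells, was at 311 and 218 CPM against 42.3, 32.0 and 23.6 CPM. *Prrx2*, a homeobox factor of mesenchyme, was at 48.4 and 85.0 CPM against 9.04, 9.06 and 7.06 CPM. *Wnt5a*, a ligand of non-canonical Wnt signaling, was at 28.5 and 45 CPM against 5.79, 4.03 and 4.29 CPM. Wnt ligands thus stood on both sides, with *Wnt4* higher and *Wnt5a* lower. *Etv4*, an ETS factor downstream of receptor kinases, had the smallest change of the 42, at 142 and 122 CPM against 47.1, 47.2 and 43.0 CPM. *Slc16a3*, a lactate exporter, was at 74.4 and 76.1 CPM against 10.8, 7.38 and 10.7 CPM. Neither gene overlapped between the groups. *Gzme*, a granzyme with close copies in the genome, was at 26.7 and 24.6 CPM against 2.19, 1.18 and 0.887 CPM. *Cd244*, a receptor of natural killer cells with a log2 fold change of -4.27, overlaps *Ly9* on the other strand, which held 1220 counts over the 5 libraries. *Tspan4* (-2.43) and *Snn* (-2.04) likewise overlap *Chid1* and *Txndc11* on the other strand, with 8477 and 9206 counts. Further genes lower had log2 fold changes between -3.55 and -1.57 and were *Mmd*, *Rbpms2*, *Mctp1*, *Rps6ka2*, *Gm44275*, *Cdh15*, *Tnfrsf23*, *Gm14005*, *Dpy19l1*, *Gulp1*, *Kctd11*, *Ctxn1*, *Fam102b* and *Mthfd1l*.

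Promoters of the called genes were searched for the CAGA element of SMAD proteins (CAGACA), the AP-1 site (TGANTCA) and the E-box bound by SNAI and ZEB factors (CACCTG), on both strands of the 250 bases before the RefSeq start site (GRCm38.p6). RefSeq entries in the table used here matched 16 of the genes higher, with 25 promoters, and 32 of the genes lower, with 36 promoters. CAGACA was in 3 of the 25 and 5 of the 36 promoters, and in 17.1% of all 32851 promoters. TGANTCA was in 1 and 4 of them, and in 6.75% of all promoters. CACCTG was in 9 and 5 of them, and in 17.2% of all promoters, with some genes counted by more than 1 promoter. The 3 sequences below belong to called genes with large changes whose only promoter entry lies outside the gene model of the files and holds a match. Capitals mark the matches, which on the other strand read as TGTCTG for CAGACA and CAGGTG for CACCTG.
*Cyp2d10*, higher, chr15:82407195-82407444, minus strand: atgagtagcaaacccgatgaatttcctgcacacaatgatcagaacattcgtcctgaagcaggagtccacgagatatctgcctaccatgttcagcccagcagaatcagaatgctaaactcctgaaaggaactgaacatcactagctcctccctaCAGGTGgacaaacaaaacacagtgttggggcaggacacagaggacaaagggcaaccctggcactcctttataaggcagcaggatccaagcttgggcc
*Olr1*, lower, chr6:129507166-129507415, minus strand: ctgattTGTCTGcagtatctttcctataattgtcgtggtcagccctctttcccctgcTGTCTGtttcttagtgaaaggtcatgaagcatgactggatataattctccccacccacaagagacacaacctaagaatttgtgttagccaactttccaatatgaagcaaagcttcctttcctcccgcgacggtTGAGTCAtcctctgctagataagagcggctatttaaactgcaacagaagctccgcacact
*Odaph*, lower, chr5:91987223-91987472, plus strand: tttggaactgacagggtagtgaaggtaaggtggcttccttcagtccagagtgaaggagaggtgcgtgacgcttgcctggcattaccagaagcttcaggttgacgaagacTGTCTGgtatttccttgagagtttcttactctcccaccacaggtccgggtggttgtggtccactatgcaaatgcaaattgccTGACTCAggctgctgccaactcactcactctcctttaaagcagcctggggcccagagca
The promoters of *Olr1* and *Odaph* each hold CAGACA, 2 times and 1 time, and an AP-1 match, and that of *Cyp2d10* holds 1 CACCTG. A match says that the letters are present and not that a factor binds there.

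The remaining genes were read by lists for the pathway and its known effects. Values over all 16007 tested genes belong beside the counts of every list below. At an unadjusted p under 0.05 (edgeR), 2217 were higher and 2123 lower, and DESeq2 called 10.1% and 7.62%. By the 2-fold measure 11.5% were higher and 7.11% lower than m1, and 15.1% and 14.3% than m2. Members named by lowest p were chosen on these same libraries, so that groups without overlap were largely fixed by that choice. Among 29 tested ligands, receptors, SMADs and extracellular regulators of TGF-beta signaling, other than *Smad4* itself, none was called in the 5 libraries by edgeR, while DESeq2 called 2 higher and 13 lower and 2 and 14 had an unadjusted p under 0.05. Against m1 alone, 1 passed the test as higher and 5 as lower, and 10 were over 2-fold lower and 5 over 2-fold higher in every labelled-on library. *Tgfb1*, the main TGF-beta ligand, was at 200 and 343 CPM in the labelled-off libraries and at 58.6, 47.5 and 64.5 CPM in the labelled-on ones. It missed the threshold in the 5 libraries (log2 fold change -2.26, adjusted p = 0.0562) and passed it against m1 alone (-1.82, adjusted p = 0.0276), both from edgeR. *Inhba*, which encodes the subunit of activin A, was at 196 and 326 CPM against 22.4, 15.4 and 6.84 CPM, with adjusted p-values of 0.0562 and 0.0366 in the same 2 fits. *Bmp7*, a BMP ligand, was at 25.8 and 13.6 CPM against 2.09, 2.61 and 3.65 CPM, and the receptor gene *Acvr1* was at 93.4 and 125 CPM against 48.0, 39.1 and 38.5 CPM. Each of these had groups that did not overlap. The median log2 value of the list was -0.24 against m1 and -2.10 against m2, beside 0.02 and -0.02 over all tested genes.

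Feedback genes and direct targets of the pathway gave no call by edgeR among 21 in the 5 libraries (8 lower at an unadjusted p under 0.05, 6 by DESeq2), and against m1 alone 1 member passed as lower. *Smad7*, the inhibitory SMAD, was at 128 and 287 CPM against 84.9, 73.1 and 78.9 CPM, and *Pmepa1*, an inhibitor of receptor signaling, was at 218 and 682 CPM against 129, 105 and 131 CPM. For both genes the distance to m2 was larger than that to m1, and their log2 fold changes of -0.70 and -0.85 against m1 alone did not pass (adjusted p = 0.0853 and 0.0744, edgeR). *Rgcc* was at 3.88 and 16.0 CPM against 1.11, 1.02 and 1.06 CPM. *Id1*, a target of BMP and TGF-beta signals, was at 120 and 42.0 CPM against 112, 139 and 161 CPM, so that the labelled-off m1 lay inside the labelled-on range. The median of the list was -0.13 against m1 and -0.71 against m2.

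The 7 fibrogenic genes that the text of the study names were all lower in every labelled-on library than in both labelled-off ones, and none passed in the 5 libraries by edgeR, whereas all 7 had an unadjusted p under 0.05 and passed by DESeq2. The study chose these genes with these samples in view. *Itga5*, the fibronectin receptor subunit, was at 189 and 244 CPM against 52.2, 39.0 and 23.1 CPM (adjusted p = 0.0562, and 0.0486 against m1 alone, edgeR). *Ccbe1*, which helps to activate VEGFC, was at 30.3 and 15.8 CPM against 2.59, 1.89 and 0.638 CPM (adjusted p = 0.0627 and 0.0393). Of the 7 genes, 3 passed against m1 alone, with *Itga5* and *Ccbe1* among them. *Has2*, a hyaluronan synthase, was at 27.3 and 38.7 CPM against 2.66, 1.68 and 0.355 CPM. The labelled-on m3 was the lowest of all libraries for this gene. *Il11*, a fibrogenic cytokine, was at 39.9 and 11.1 CPM against 6.23, 2.54 and 0.496 CPM. *Wisp1*, a matricellular protein, was at 19.1 and 133 CPM against 4.66, 6.67 and 1.92 CPM. *Col6a1* was the member that leaned most on the paired-end library, at 256 and 2476 CPM against 151, 170 and 83.1 CPM, and it was not over 2-fold lower than m1.

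Extracellular matrix genes differed between the labelled-off libraries. Of 53 tested, 42 were over 2-fold lower than m2 in every labelled-on library and 4 higher, beside 14.3% and 15.1% of all tested genes. By the same measure 13 were lower and 13 higher than m1, beside 7.11% and 11.5% of all tested genes. The median log2 value was -3.72 against m2 and -0.13 against m1, and 11 genes were over 2-fold apart in opposite directions. *Col3a1*, a fibrillar collagen, was at 217 and 15785 CPM against 376, 700 and 177 CPM. *Col1a1* was at 56.4 and 9912 CPM against 244, 270 and 115 CPM, and *Col1a2* at 28.6 and 8136 CPM against 150, 178 and 31.2 CPM. For these collagens the labelled-on libraries lay far below m2 and above m1, other than *Col3a1* in the labelled-on m3, and the same held for *Acta2*, smooth muscle actin, at 34.0 and 595 CPM against 73.6, 55.1 and 48.9 CPM. Over all tested genes, 130 were over 2-fold higher than m1 and over 2-fold lower than m2 in every labelled-on library, and 21 were the reverse.

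Other matrix genes were lower than both. *Fbln2*, which encodes the elastic fiber protein fibulin 2, was at 1691 and 4261 CPM against 168, 120 and 58.2 CPM. *Lamb1*, a laminin chain, was at 429 and 1051 CPM against 128, 106 and 97.9 CPM. *Col7a1*, the anchoring fibril collagen, was at 182 and 734 CPM against 30.8, 29.3 and 39.3 CPM. *Col18a1*, a basement membrane collagen, was at 2039 and 2415 CPM against 637, 730 and 543 CPM. All 4 missed the threshold in the 5 libraries (adjusted p = 0.0562 to 0.0578) and passed it against m1 alone, and no matrix gene was called in the 5 libraries by edgeR, beside 1 higher and 33 lower by DESeq2 and 1 and 30 at an unadjusted p under 0.05. Against m1 alone the test called 6 matrix genes lower and 2 higher.

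**Figure D3:**
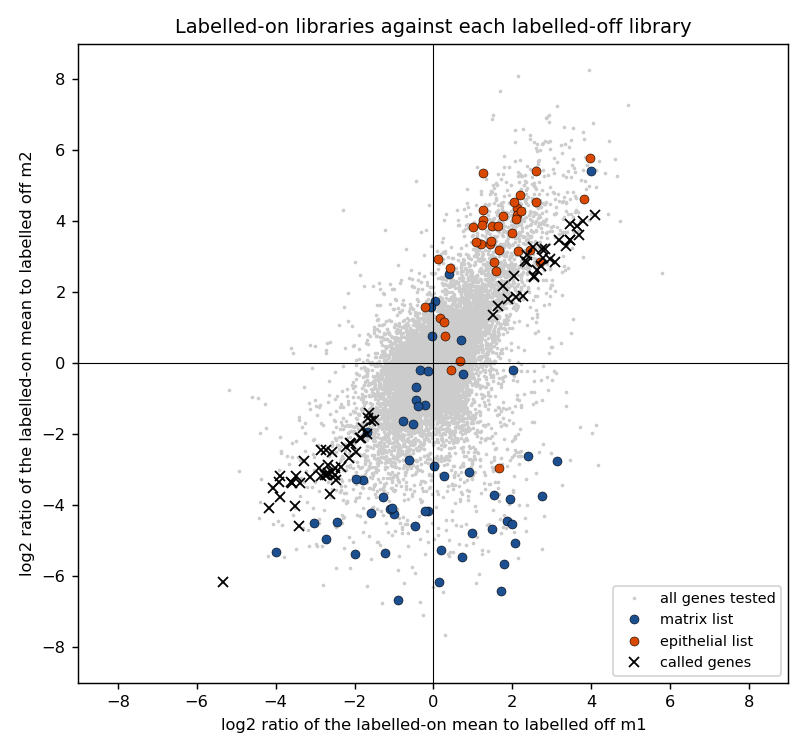
Log2 ratio of the labelled-on mean to the labelled-off m1 (x axis) and to the labelled-off m2 (y axis), with 0.5 CPM added, for all 16007 genes tested, the called genes and the matrix and epithelial lists. The called genes lie near the diagonal, the matrix genes spread along the y axis with medians of -0.13 against m1 and -3.72 against m2, and the epithelial genes lie above 0 on both axes with few exceptions.

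Adhesion genes numbered 35 tested, of which *Cav1* was called (1 higher and 18 lower at an unadjusted p under 0.05, 1 and 16 by DESeq2). Against m1 alone 7 passed as lower and 2 as higher. *Msn*, the membrane-cytoskeleton linker moesin, was at 1692 and 1974 CPM against 332, 286 and 185 CPM (log2 fold change -2.78, adjusted p = 0.0527, edgeR). *Flnc*, a filamin, was at 83.6 and 216 CPM against 14.3, 16.3 and 7.09 CPM, and the protease gene *Capn2* was at 420 and 479 CPM against 191, 189 and 158 CPM. The labelled-off libraries were alike for *Msn* and *Capn2* and differed for *Flnc*. Of 40 genes of glycosaminoglycan synthesis, none was called in the 5 libraries by edgeR (2 higher and 22 lower at an unadjusted p under 0.05, 1 and 18 by DESeq2), and 5 passed as lower and 1 as higher against m1 alone. *Chst1*, a keratan sulfotransferase, was at 7.92 and 9.29 CPM against 0.961, 0.527 and 0.567 CPM (adjusted p = 0.0540, edgeR). *Csgalnact1*, which starts chondroitin chains, was at 22.6 and 73.8 CPM against 2.19, 1.40 and 0.426 CPM, *Chst2* was at 14.2 and 36.9 CPM against 3.47, 3.47 and 2.66 CPM, and *Chsy3* was at 31.0 and 33.9 CPM against 8.94, 7.13 and 5.43 CPM. The medians against m1 were -0.60 for adhesion and -0.45 for glycosaminoglycan synthesis.

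Mesenchymal and epithelial genes stood on opposite sides. Of 20 mesenchymal genes, 20 had a negative log2 fold change, beside 8587 of all 16007 tested genes. By the labelled-on mean 15 lay below m1 and 5 above it, and 20 lay below m2. The median log2 value of the list was -0.95 against m1 and -2.56 against m2. Of the 20, 10 were over 2-fold lower than m1 and 1 higher, beside 7.11% and 11.5% of all tested genes. None was called in the 5 libraries by edgeR, beside 14 lower at an unadjusted p under 0.05 and 12 by DESeq2. *Vim*, the intermediate filament vimentin, was at 5393 and 6390 CPM against 1039, 966 and 480 CPM. *Cdh2*, N-cadherin, was at 92.2 and 104 CPM against 30.1, 29.7 and 18.1 CPM. These 2 genes passed against m1 alone (adjusted p = 0.0437 and 0.0457, edgeR). *Fn1*, fibronectin, was at 3714 and 17250 CPM against 718, 764 and 317 CPM, and *Tpm2*, a tropomyosin, was at 109 and 114 CPM against 58.4, 65.1 and 58.9 CPM.

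Among 38 epithelial genes, 37 had a positive log2 fold change, 30 were over 2-fold higher than m1 and 34 than m2 in every labelled-on library, beside 11.5% and 15.1% of all tested genes. None was called in the 5 libraries by edgeR, beside 25 higher at an unadjusted p under 0.05 and 26 by DESeq2, and 17 passed as higher and 0 as lower against m1 alone, beside 3.12% of all genes. *Grhl2*, a grainyhead factor of epithelial junction genes, was at 1.10 and 0.404 CPM against 16.7, 13.6 and 46.2 CPM, and *Grhl1* at 0.639 and 0.525 CPM against 7.00, 4.56 and 10.3 CPM. *Cldn23*, a claudin, was at 6.39 and 3.60 CPM against 39.1, 32.5 and 41.0 CPM (adjusted p = 0.0527, edgeR). *Pkp3*, a desmosomal plakophilin, was at 23.1 and 11 CPM against 86.0, 92.1 and 140 CPM. All labelled-on libraries were above both labelled-off ones in these 4 genes, and m2, whose summed markers of tumor epithelium were lowest, was the lower of its group. The median log2 value of the list was 1.57 against m1 and 3.56 against m2. Less RNA per cell and fewer cells of a kind cannot be told apart in these bulk libraries.

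Of 35 tested genes of foregut identity, *Muc5ac* was the only one called by edgeR, beside 14 higher and 1 lower at an unadjusted p under 0.05 and 13 and 0 by DESeq2. A positive log2 fold change was found for 31 and a negative one for 4, beside 7420 and 8587 of all 16007 tested genes. Of the list, 16 were over 2-fold higher than m1 and 1 lower, beside 11.5% and 7.11% of all tested genes. *Tff2*, a trefoil peptide of gastric mucus, was at 175 and 27.1 CPM against 2218, 3291 and 941 CPM. *Muc13*, a membrane mucin, was at 105 and 19.4 CPM against 928, 800 and 671 CPM. *Cldn18*, a claudin of stomach and lung, was at 1.00 and 0.121 CPM against 7.71, 8.93 and 11.1 CPM, and *Foxa1*, a pioneer factor of foregut organs, was at 7.26 and 2.34 CPM against 48.8, 31.3 and 73.0 CPM. *Muc13* and *Cldn18* passed against m1 alone (adjusted p = 0.0276 and 0.0308, edgeR), and *Tff2* and *Foxa1* did not (adjusted p = 0.0830 and 0.0575). Against m1 alone 7 of the list passed as higher and 0 as lower, beside 3.12% and 1.85% of all genes in that fit.

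Receptor kinases and their ligands split. *Axl* and *Vegfc* were called lower (7 higher and 12 lower at an unadjusted p under 0.05, 5 and 12 by DESeq2), and of the 43 tested 6 passed as higher and 6 as lower against m1 alone. *Fgfr2*, a receptor of fibroblast growth factors, was at 9.04 and 3.76 CPM against 98.6, 90.6 and 127 CPM, and *Fgfr3* at 8.88 and 3.68 CPM against 64.0, 63.5 and 113 CPM. *Gas6*, the ligand of AXL, was at 47.5 and 98.7 CPM against 374, 434 and 421 CPM, the reverse of its receptor. *Pdgfa* was at 140 and 149 CPM against 55.1, 45.5 and 67.8 CPM. All 4 missed the threshold in the 5 libraries (adjusted p = 0.0562 to 0.0578, edgeR) and passed it against m1 alone. In the Hedgehog list, 0 of 16 were called in the 5 libraries by edgeR (4 higher and 6 lower both at an unadjusted p under 0.05 and by DESeq2), and 4 passed as higher and 1 as lower against m1 alone. *Shh* was at 0.480 and 0.646 CPM against 11.7, 12.9 and 56.6 CPM, *Ihh* at 3.40 and 0.727 CPM against 25.5, 33.1 and 23.5 CPM, and *Dhh* at 31.2 and 18.9 CPM against 8.03, 7.23 and 6.45 CPM. The ligands of the family thus stood on different sides, and their receptor gene *Ptch1* was at 21.5 and 25.0 CPM against 45.4, 47.2 and 52.9 CPM.

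Cell cycle lists had differences with a common sign, larger against m1 than against m2. Of 43 S-phase genes, 43 were below m1 and 30 below m2 by the labelled-on mean, and of 54 G2/M-phase genes 51 and 40 were. Over all 16007 tested genes, 7745 were below m1 and 8174 below m2. The medians of the lists were -0.98 and -1.03 against m1 and -0.21 and -0.23 against m2, so that the distance to m1 was the larger. In every labelled-on library, 19 S-phase and 28 G2/M-phase genes were over 2-fold lower than m1, and 0 were higher. Against m2 the numbers were 2 and 2 lower, and 0 and 2 higher. Over all tested genes 7.11% were lower and 11.5% higher than m1, and 14.3% and 15.1% than m2. No gene of either list was called in the 5 libraries by edgeR. At an unadjusted p under 0.05, 9 S-phase and 6 G2/M-phase genes were lower, and 3 and 1 by DESeq2. Over all 16007 tested genes, 2123 and 1220 were lower by these measures. Against m1 alone 1 S-phase and 0 G2/M-phase genes passed. *E2f8*, a repressor of the E2F family, was at 31.8 and 33.9 CPM against 16.3, 14.3 and 9.72 CPM, and *Uhrf1*, which maintains DNA methylation, at 107 and 71.6 CPM against 55.0, 44.6 and 36.9 CPM. The groups did not overlap for either gene. *Rrm1*, of nucleotide supply, was at 157 and 102 CPM against 80.5, 67.7 and 55.9 CPM. *Mcm5*, of replication licensing, was at 142 and 101 CPM against 80.7, 66.4 and 66.7 CPM. *Anln*, of the contractile ring, was at 135 and 114 CPM against 65.6, 54.3 and 27.2 CPM, and *Cks2*, *Cks1b* and *Anp32e* had log2 fold changes of -0.83, -1.25 and -0.59.

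Of 23 tested genes of cytostasis and apoptosis, none was called in the 5 libraries by edgeR (5 higher and 6 lower at an unadjusted p under 0.05, 2 and 4 by DESeq2) and 1 passed as lower against m1 alone. *Cdkn1c*, which encodes the cell cycle inhibitor p57, was at 5.69 and 9.13 CPM against 1.75, 1.77 and 1.88 CPM (log2 fold change -2.04, standard error 0.36, adjusted p = 0.0627, edgeR). Its groups did not overlap, and against m1 alone the log2 fold change was -1.67 (adjusted p = 0.0637). On the other side, *Dapk1*, a death-associated kinase, was at 0.685 and 0.687 CPM against 5.72, 4.37 and 3.51 CPM, and *Bik*, a BH3-only protein, at 0.891 and 0.768 CPM against 4.58, 4.19 and 7.20 CPM. The median of the list was -0.10 against m1 and -0.23 against m2.

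Among 19 tested KLF and RUNX factors none was called in the 5 libraries by edgeR (3 higher and 5 lower at an unadjusted p under 0.05, 2 and 4 by DESeq2), and 1 passed as higher and 1 as lower against m1 alone. *Klf4* was at 151 and 561 CPM against 254, 281 and 274 CPM, between the labelled-off libraries, and *Klf5* was at 146 and 118 CPM against 271, 247 and 304 CPM, above both. *Klf11*, a TGF-beta-inducible factor, was at 38.7 and 38.9 CPM against 93.4, 78.3 and 86.9 CPM and passed against m1 alone (adjusted p = 0.0461, edgeR). *Runx1* was at 101 and 203 CPM against 92.7, 73.2 and 97.1 CPM, close to m1, and *Runx3* at 14.5 and 49.5 CPM against 3.82, 2.88 and 1.84 CPM. *Klf12* was at 3.20 and 1.78 CPM against 0.468, 0.651 and 0.284 CPM.

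Of 30 interferon-stimulated genes, 27 had a positive log2 fold change, none was called in the 5 libraries by edgeR (18 higher both at an unadjusted p under 0.05 and by DESeq2), and 2 passed as higher and 0 as lower against m1 alone. *Irf7*, a regulator of interferon genes, was at 28.2 and 15.8 CPM against 103, 175 and 80.3 CPM, and *Oasl1* at 24.8 and 6.91 CPM against 113, 105 and 81.2 CPM. *Psmb9*, an immunoproteasome subunit, was at 3.86 and 3.51 CPM against 14.3, 21.7 and 9.68 CPM, and *Ifih1*, an RNA sensor, at 22.2 and 14.1 CPM against 40.3, 45.3 and 40.3 CPM. The groups did not overlap for any of these 4, which were chosen by their low p in the same libraries. Over all tested genes this held for 23.7% with the labelled-on group higher. The medians of the list were 1.02 against m1 and 1.24 against m2. Over all 16007 tested genes, 7420 had a positive log2 fold change. At an unadjusted p under 0.05, 2217 of them were higher, and 1622 by DESeq2. Of 18 tested copper and metallothionein genes, *Atp7b* was called, 11 had a positive and 7 a negative log2 fold change, and the medians were 0.01 against m1 and 0.02 against m2. *Steap3* was at 8.72 and 59.6 CPM against 9.21, 7.23 and 11.1 CPM, *Slc39a4* at 109 and 24.6 CPM against 202, 222 and 180 CPM, *Slc39a14* at 69.3 and 126 CPM against 53.3, 46.8 and 45 CPM, and *Steap4* at 1.14 and 2.59 CPM against 6.53, 4.13 and 3.33 CPM.

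**Figure D4:**
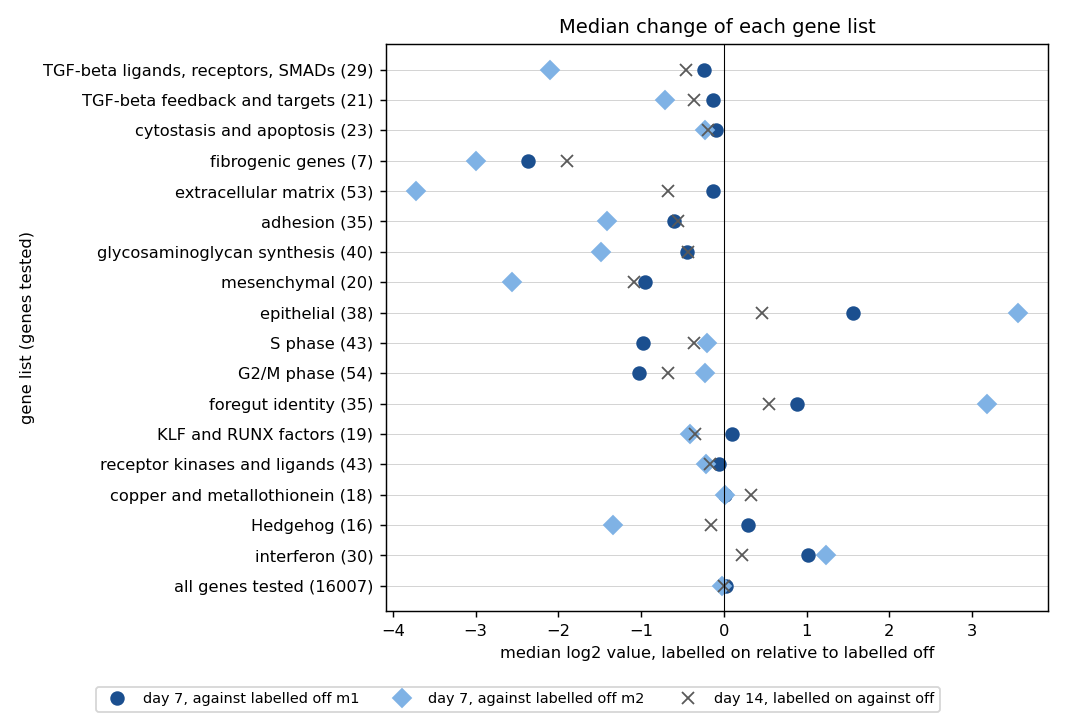
Median log2 value of each gene list, labelled on relative to labelled off, against the labelled-off m1 and m2 of day 7 and on day 14, with the number of genes tested. The matrix list is at -0.13 against m1 and -3.72 against m2, the epithelial list at 1.57, 3.56 and 0.46, and all tested genes lie near 0.

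Liver metastases of day 14 gave the same comparison in 6 other libraries, 3 labelled on and 3 labelled off. In a fit of all 11 liver libraries, 28 of the 29 genes higher and 42 of the 42 lower on day 7 had the same sign on day 14, beside 75.2% and 71.8% of all tested genes with those signs on day 7. Of them 11 were over 2-fold higher and 36 over 2-fold lower on day 14 (5.97% and 5.92% of all genes). Sizes were smaller on day 14 for 70 of the 71 genes, which were chosen for their size on day 7. The median log2 fold change of the genes higher was 3.38 on day 7 and 0.73 on day 14, and that of the genes lower was -2.98 and -1.74. *Smad4* was the exception in size, at -2.94 on day 14, and the only one of the 71 with an adjusted p under 0.05 on day 14. It was at -3.08 to -2.69 when any library of day 14 was left out, with adjusted p-values of 0.000832 to 0.0300 (edgeR). Counts over the 71 genes on day 14 changed with single libraries, which were left out after the data were seen. Without the labelled-off m1 of day 14, 26 of the genes higher and 39 of those lower had the same sign, 8 and 24 were over 2-fold apart, and the medians were 0.43 and -1.05. Without the labelled-off m3, 21 genes were over 2-fold higher and the median of the genes higher was 1.37, and without the labelled-on m1 7 were, with 24 of the 29 of the same sign.

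*Muc5ac* was the exception in sign. It was at 2.79, 1.17 and 4.33 CPM in the labelled-off libraries of day 14 and at 0.681, 0.766 and 0.480 CPM in the labelled-on ones, lower in all of them, after being higher in all of them on day 7. Its log2 fold change was 4.52 on day 7 and -2.08 on day 14, and the difference between the days had an unadjusted p of 5.96e-06 and an adjusted p of 0.101 over 16913 genes (edgeR). *Slc16a3* overlapped on day 14, at 75.1, 36.6 and 17.6 CPM against 33.1, 50.3 and 15.1 CPM. *Odaph* was at 28.7, 3.49 and 6.19 CPM against 1.88, 1.22 and 0.480 CPM on day 14, a log2 fold change of -3.40 that was -2.0 without the labelled-off m1. *Mmd*, a membrane protein of macrophage differentiation, was at 258, 32.9 and 37.7 CPM against 11.3, 10.3 and 11.3 CPM, a log2 fold change of -3.32 that was -1.69 without the same library. No gene passed the test of the difference between days in this fit, with 836 having a larger and 474 a smaller log2 fold change on day 7 at an unadjusted p under 0.05, and DESeq2 called 90 and 30.

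**Figure D5:**
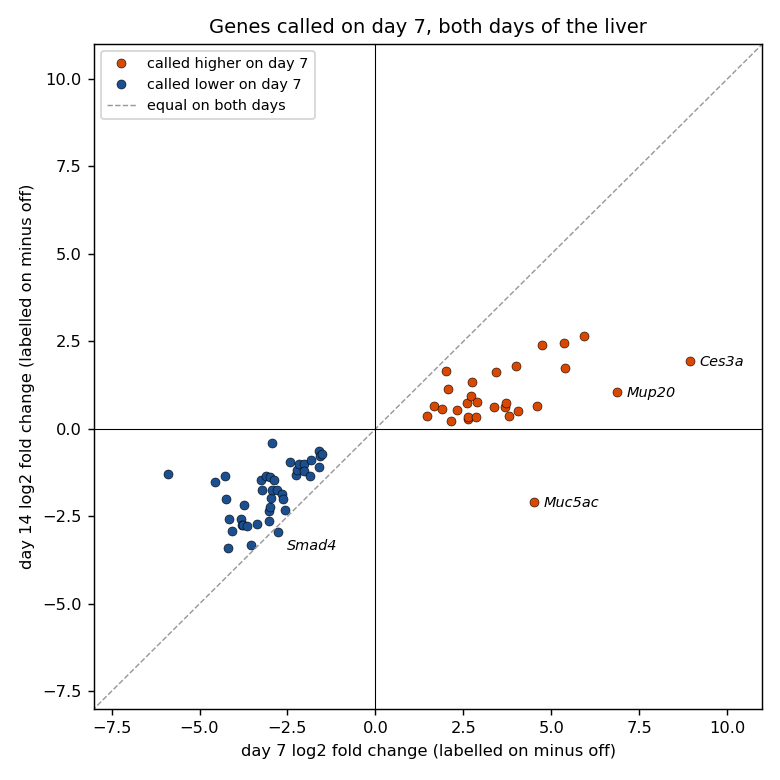
Log2 fold changes, labelled on minus labelled off, on day 7 (x axis) and day 14 (y axis) for the 29 genes called higher and the 42 called lower on day 7, from the fit of 11 liver libraries. All genes but *Muc5ac* (4.52 and -2.08) have the same sign on both days, and all but *Smad4* lie nearer to 0 on day 14.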

How the data were processed

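RNA-seq counts were analysed in the 5 liver libraries of day 7, with the 6 of day 14 as a further comparison. The authors trimmed reads with Trimmomatic 0.36, checked them with FastQC 0.11.5, aligned them with STAR 2.5.3a to GRCm38 and counted them per gene with featureCounts 1.6.3, and deposited raw counts for 53465 genes. Libraries were polyA-selected and stranded. The strand and multimapper settings of the counting are not given in the sources used here. Groups came from the sample titles.

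Genes were kept by filterByExpr with a minimum total of 15 and a minimum count of 10, TMM-scaled, and tested with edgeR 4.0.16 (robust quasi-likelihood, R 4.3.3), Benjamini-Hochberg adjusted over all genes kept. Calls needed an adjusted p under 0.05 together with more than a 2-fold change. With 3 residual degrees of freedom the biological coefficient of variation was 0.455. Ratios to m1 or m2 alone used the labelled-on mean with 0.5 CPM added, and a gene was over 2-fold apart only if every labelled-on library was on that side. The difference between days was tested as an interaction in 11 libraries. DESeq2 1.42.0, other filters, scalings, controls and left-out libraries were alternatives. Intervals and floors cover counting error only.

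Named genes were *Smad4*, the 12 called genes higher and 12 lower with the largest fold changes, called genes that do not hold against m1 (there were none), genes the study's text names, called members and up to 4 members of each list with the lowest p, and the leading acinar, hepatocyte and fibroblast markers. Some of the named genes and an allele of the model are not reported here. Members, lists and rules were chosen with earlier results of these data known.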

Additional observations from a re-analysis of the deposited data

Results flagged for a closer look

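*Muc5ac*, the gel-forming mucin gene, was the only one of the 71 called genes with log2 fold changes of opposite sign on the 2 days. Its log2 fold change of labelled on against labelled off was 4.52 on day 7 and -2.08 on day 14, a difference of 6.60. Every labelled-on library of day 7 lay above both labelled-off ones, and every labelled-on library of day 14 lay below all labelled-off ones. The test of the difference gave an unadjusted p of 5.96e-06 and an adjusted p of 0.101 (edgeR, interaction of label and day over 16913 genes), so that it missed the threshold after correction.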

How the results depend on the processing

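The number of genes called depended on the fit. All 71 called genes kept their sign wherever they had a value. They were called on these same libraries with groups that did not overlap, so that fits of these libraries alone could hardly reverse them. Against 29 higher and 42 lower, DESeq2 called 1622 and 1220, no low-count filter 435 and 542, at least 10 counts in every library 167 and 187, a single fit of 12 groups 1706 and 1391, the labelled-off libraries of days 7 and 14 as controls 5 and 2, m1 of day 7 with those of day 14 as controls 383 and 325, and a covariate for *mt-Co3* 558 and 464. DESeq2 without the paired-end library, chosen after seeing the data, called 1551 and 828. Leaving out 1 library gave 0 to 1730 higher and 0 to 1643 lower, with 0 and 0 when any labelled-on library was left out (1380 to 1806 and 1174 to 1578 at an unadjusted p under 0.05). The causes were not tested, and each of these fits with 1 library left out has the same number of libraries. With the mouse number as a replicate block 0 and 0 genes were called (1536 and 1056 at an unadjusted p under 0.05), and *Smad4* was at -2.78 (adjusted p = 0.191, edgeR). Whether the numbers pair the mice is not given in the labels. Deviations of same-numbered libraries correlated at 0.29 for m1 and -0.31 for m2, which cannot settle it, since the deviations of the 2 labelled-off libraries mirror each other. *Smad4* ranged from -2.96 to -2.55 when 1 library was left out, with adjusted p-values of 0.131 to 0.242 without a labelled-on library. The day difference gave 90 and 30 genes by DESeq2, 1 higher without the filter, and 0 to 498 higher and 0 to 181 lower with 1 library left out, the highest without the labelled-off m1 of day 7, and 1 higher without the labelled-off m2 of day 14. Named genes that reversed did so without the paired-end library: over the left-out libraries log2 fold changes ran from -1.01 to 0.83 for *Klf4*, -2.65 to 0.062 for *Steap3*, -9.35 to 1.56 for *Ctrb1*, -1.88 to 1.34 for *Cela1*, -2.53 to 1.18 for *Ass1*, -5.20 to 0.95 for *Col3a1*, -5.53 to 1.89 for *Col1a1*, -6.05 to 2.07 for *Col1a2* and -3.29 to 0.79 for *Acta2*. DESeq2 without that library gave 0.81 for *Klf4*, 0.049 for *Steap3*, 1.32 for *Cela1*, 1.18 for *Ass1*, 0.92 for *Col3a1*, 1.86 for *Col1a1*, 2.03 for *Col1a2* and 0.77 for *Acta2*, and *Cela1* was at 0.24 with m1 and the day 14 controls. Scaling by DESeq2 size factors gave 26 and 43 genes, and dropping the fold threshold 29 and 42.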

Other observations

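The genes called in all of 5 other fits were 66 higher, 7 of them among the 71, and 129 lower, 32 of them among the 71 (DESeq2, the single fit of 12 groups, the *mt-Co3* covariate, the fit without the paired-end library, and m1 with the day 14 controls). These fits share libraries with the test above and with each other, and the genes below are outside the 71 and were chosen after their values were seen. *Oprd1*, the delta opioid receptor (GRCm38 chromosome 4, 132110726 to 132144486, minus strand), was at 1.80 and 0.606 CPM in the labelled-off libraries and at 34.3, 29.5 and 41.4 CPM in the labelled-on ones. It lies beside *Gm37711* (132104830 to 132109363, same strand), one of the genes called higher. *Edn1*, the vasoconstrictor endothelin 1, was at 2.06 and 3.96 CPM against 50.7, 27.8 and 30.3 CPM, and *Pgc*, the gastric protease progastricsin, at 2.60 and 0.646 CPM against 27.9, 34.3 and 34.0 CPM. *Casp4*, the caspase of the non-canonical inflammasome, was at 14.3 and 10.3 CPM against 49.0, 42.1 and 39.1 CPM, beside the called *Casp1*. *Slc40a1*, the iron exporter ferroportin, was at 40.1 and 13.9 CPM against 142.7, 169.7 and 140.9 CPM.

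On the lower side *F2r*, the thrombin receptor, was at 430.3 and 453 CPM against 64.4, 47.6 and 27.6 CPM. *Angptl2*, a secreted angiopoietin-like protein, was at 210.4 and 311 CPM against 25.2, 21.7 and 10.6 CPM. *Cd109*, a TGF-beta co-receptor, was at 82.9 and 55.4 CPM against 10.5, 8.75 and 5.43 CPM, and *Timp1*, an inhibitor of metalloproteinases, at 168 and 216 CPM against 23.4, 21.2 and 7.55 CPM. The groups did not overlap for any of these genes, and their log2 fold changes on day 14 had the same sign, from -2.67 for *Cd109* to 2.36 for *Oprd1*. Over all tested genes, 73.6% had the same sign on both days. Libraries of day 14 took part in some of the fits that chose these genes, so that their sign on day 14 is no independent repeat.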
